A study of Mus musculus with 6 samples.

Results

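Interferon-stimulated genes are the transcripts that a cell switches on after interferon binds its receptors, and 37 of them were followed in brown adipose tissue (BAT), the heat-producing fat. They were taken as a fixed list of gene symbols, and each gene was read through the probe set that carries its symbol alone and has the highest mean signal over all arrays. Of the 37 genes, 35 had such a probe set, out of 18193 genes in the whole series, while Isg15 and Ifi44 had none and are not analysed here. The tissue came from 3 KRAP-deficient (KO) and 3 wild-type (WT) littermates on normal chow, paired as KO 1 with WT 1 and so on, aged 32 weeks, with 1 Affymetrix whole-genome mouse array for each animal. KRAP binds filamentous actin and inositol trisphosphate receptors. In the KO mice exons 11 to 16 of its gene had been replaced by a neomycin cassette, in a line backcrossed to C57BL6/J, and the WT mice carried no such allele.

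Interferons act through receptors whose JAK kinases phosphorylate STAT proteins. Type I interferons lead to a complex that contains STAT2 and IRF9 and binds interferon-stimulated response elements, whereas the response to interferon gamma runs through gamma-activated sites. The induced genes encode sensors of foreign nucleic acid, effectors that block viral replication, GTPases that attack the vacuoles of intracellular parasites, and the machinery that loads peptides onto MHC class I. Immune cells, endothelial cells and adipocytes of fat tissue all respond to interferons.

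All signals are relative to the array median, which lay between 16.5 and 20.4 intensity units and is set to 1. The 1 probe set of KRAP, under its symbol Itprid2, read 47.0, 35.1 and 41.4 in KO 1 to 3, against 55.3, 56.6 and 42.2 in WT 1 to 3. Where its probes lie relative to the replaced exons is not known here, so it did not check the genotype labels. The 10 brown adipocyte markers summed to 2845 to 3715 in KO and 2880 to 3707 in WT. Of these markers, 2 stood high in both animals of pair 1. Dio2 read 101 in KO 1 and 44.3 in WT 1, against 4.05 to 15.3 on the other arrays. Ppargc1a read 111 and 72.7, against 9.88 to 12.2. They are named after their values were seen, and their relation to the interferon-stimulated genes was not tested. The array of WT 2 stood apart, with 3.80 times as much signal at the 3' end of actin as at its 5' end, where the other arrays had 1.91 to 2.58 times as much. For pyruvate carboxylase this ratio was 52.9 on WT 2, against 8.99 to 25.3. The unscaled intensity of 18S ribosomal RNA was 733 on WT 2, against 35.3 to 77.8. KO 2 held the most signal of skeletal muscle, where 6 marker genes summed to 681.3, against 82.3 and 124.6 in the other KO arrays and 158.8 to 323.3 in WT. Results are therefore also given without pair 2, which holds both arrays. With 3 pairs an exact sign-flip permutation test of 1 gene cannot go below p = 0.25 (two-sided), so tests rest on limma fitted across all probe sets.

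The interferon-stimulated genes did not shift as a block. Log2 differences, always KO minus WT, ran from -0.99 for Iigp1 to 0.95 for Oas2, with 23 of the 35 genes below 0 and a median of -0.13, against a median of -0.03 over all genes measured and -0.07 over the genes tested. The GTPases stood at the low end and the OAS family at both ends. In all 3 pairs 11 of 35 genes lay lower in KO, which was the case for 14.4% of all genes measured and 19.7% of the genes tested. In all 3 pairs 3 of 35 lay higher in KO (9.18% of all genes measured and 10.9% of those tested). Every KO array lay below every WT array for 6 genes, Iigp1, Ifi47, Gbp3, Gbp2, Ifit3 and Xaf1 (5.89% of all genes measured and 7.87% of those tested), and above for 1 gene, Oas2 (3.95% and 4.43%).

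Probe sets with a mean signal above 1, the array median, were tested, and these included 31 of the 35 genes. The other 4, Zbp1, Mx1, Mx2 and Oas3, were dimmer. None of the 31 passed limma's adjusted threshold of 0.05 (0% of 11140 genes tested), and their smallest adjusted p was 0.426, for Iigp1. At an unadjusted p under 0.05, 5 lay lower (4.98% of the genes tested) and 1 higher (3.22%). The 1 higher gene, Oas2, exceeded the minimum for testing through its KO signals alone, so its test is not read as a result. Of the 35 genes, 0 met the rule of the study's methods, 1.5-fold or more in the same direction in each pair (0.995% of all genes measured lower and 0.863% higher, and 0.862% and 0.601% of the genes tested). With an intensity trend and robust prior in the fit, 1 of the 31 passed, Iigp1 at a limma adjusted p of 0.00835. In that fit 1.39% of the 22356 probe sets tested passed. Over all alternatives the adjusted p of Iigp1 ranged from 0.00835 to 0.788.

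**Figure D1:**
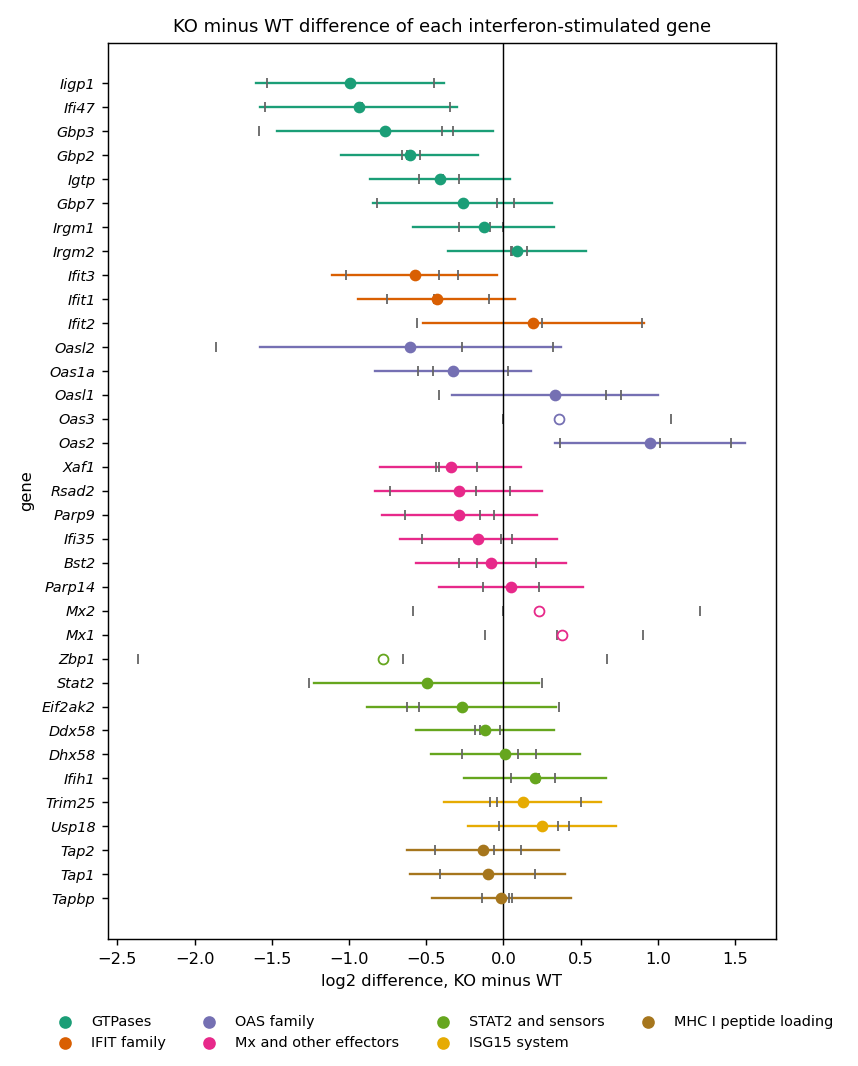
Log2 difference, KO minus WT, of each of the 35 measured genes, in groups by role. Dots are means over 3 pairs with limma's 95% confidence intervals as lines, grey ticks are the single pairs, and open dots are the 4 genes too dim to be tested, which have no interval. Iigp1, Ifi47, Gbp3, Gbp2 and Ifit3 have intervals below 0 before adjustment. The interval of Oas2 lies above 0, but this gene was bright enough to be tested through KO alone.

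The interferon-inducible GTPases were the group with the lowest median. They comprise the immunity-related GTPases Iigp1, Ifi47, Igtp, Irgm1 and Irgm2 and the guanylate-binding proteins Gbp2, Gbp3 and Gbp7, which gather on the vacuoles of parasites and bacteria in mice and are induced most strongly by interferon gamma. All 8 were measured and tested. Of these, 6 lay lower and 1 higher in all 3 pairs, against 19.7% and 10.9% of the genes tested. Their median difference was -0.51. By pair the median of the 8 was -0.72, -0.47 and -0.31 in pairs 1 to 3, against -0.03, -0.24 and 0.06 over all genes tested. Without pair 1 the median was -0.39 and without pair 2 it was -0.48, each time with 6 of 8 lower in both remaining pairs. A share over all genes is not given for 2 pairs. The other 27 measured genes had a median of -0.10, with 5 lower and 2 higher in all 3 pairs (14.4% and 9.18% of all genes measured).

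Iigp1, an effector that coats the vacuole of Toxoplasma, read 8.06, 7.46 and 7.00 in KO 1 to 3, against 23.3, 14.9 and 9.54 in WT 1 to 3. The KO arrays lay close together and all below the WT arrays, which spread widely. The means were 7.51 ± 0.533 in KO and 15.9 ± 6.92 in WT (SD, n = 3 each), 1.99-fold lower in KO. On the log2 scale the difference was -0.99, with 95% confidence limits of -1.60 and -0.38 and a limma adjusted p of 0.426. A second, dimmer probe set of Iigp1 read 4.08, 4.51 and 2.98 in KO 1 to 3, against 10.7, 5.59 and 4.31 in WT 1 to 3. It was lower in 3 of 3 pairs, at -0.74, but KO 2 lay above WT 3.

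Ifi47, another immunity-related GTPase, read 1.11, 1.64 and 2.06 in KO 1 to 3, against 3.24, 3.10 and 2.62 in WT 1 to 3. All KO arrays lay below all WT arrays, and the gap was widest in pair 1 and narrowest in pair 3, with KO over WT ratios of 0.343, 0.529 and 0.786. The log2 difference was -0.94 (95% confidence interval, CI, -1.57 to -0.30, limma adjusted p = 0.457), and without pair 1 it was -0.63.

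Among the guanylate-binding proteins, Gbp3 read 2.29, 3.73 and 3.69 in KO 1 to 3, against 6.85, 4.90 and 4.62 in WT 1 to 3. The groups did not overlap, but KO 1 and WT 1 were the extremes, so the difference of -0.77 (limma adjusted p = 0.559) was -0.36 without pair 1. Gbp2 read 9.61, 14.4 and 12.5 in KO 1 to 3, against 14.8, 22.7 and 18.2 in WT 1 to 3. Here the 3 pairs gave much the same ratio, 0.648, 0.636 and 0.687, whereas the level itself differed between pairs in both genotypes. The log2 difference of -0.61 (95% CI -1.05 to -0.16, limma adjusted p = 0.483) lay between -0.64 and -0.58 with 1 pair left out. Its brightest probe set is of the kind whose probes can match related sequences (suffix x_at), and the second, without that suffix, gave -0.45 and was lower in 3 of 3 pairs.

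Igtp, which acts on the membranes of vacuoles and the endoplasmic reticulum, read 8.76, 9.02 and 6.47 in KO 1 to 3, against 11.5, 13.2 and 7.88 in WT 1 to 3, with ratios of 0.761, 0.683 and 0.820. It was lower in each pair, but the groups overlapped (log2 difference -0.41, limma adjusted p = 0.625). Gbp7 read 3.53, 5.94 and 5.19 in KO 1 to 3, against 6.24, 6.11 and 4.94 in WT 1 to 3, with KO 1 alone clearly low. Its probe sets differed: the brighter one gave -0.26 (2 of 3 pairs lower, and 0.02 without pair 1) and the other -0.55 (3 of 3 pairs lower). The remaining immunity-related GTPases, Irgm1 and Irgm2, differed by -0.13 (95% CI -0.58 to 0.33) and 0.09 (-0.36 to 0.53). Their ratios lay between 0.818 and 0.998 for Irgm1 and between 1.03 and 1.11 for Irgm2. Intervals this wide do not show that these 2 genes were equal in both genotypes.

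**Figure D2:**
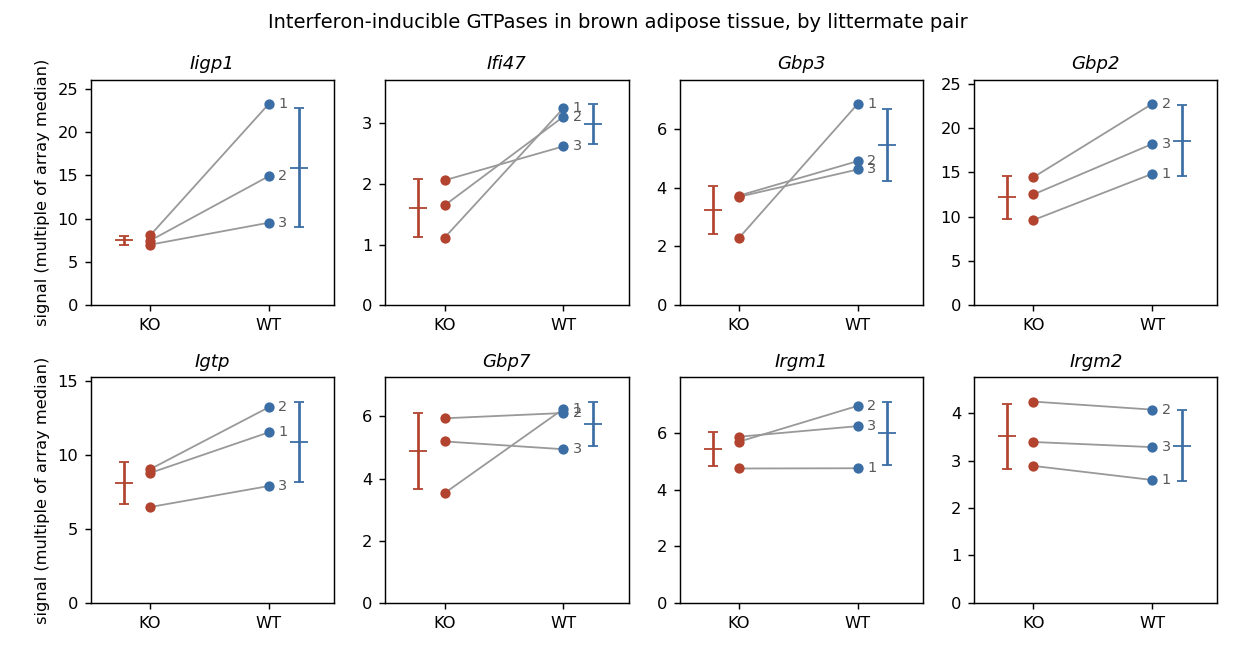
Signals of the 8 interferon-inducible GTPases in BAT of KO (left, red) and WT mice (right, blue), as multiples of the array median on linear axes that start at 0. Each point is 1 array, lines in grey connect the animals of a pair (numbered beside the WT point), and ticks with error bars give the mean and SD (n = 3). For Iigp1, Ifi47, Gbp3 and Gbp2 all KO points lie below all WT points, whereas for Irgm2 each KO point lies slightly above that of its littermate.

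Markers of leukocytes that make or answer interferon gamma were read on the same arrays. Of 6 measured T cell markers 5, and of 6 NK cell markers 5, had a mean signal below the array median, Cd3d and Cd4 among them below 0.25 of the median on every array. The summed T cell level was 2.83 to 5.81 in KO and 3.30 to 4.12 in WT, and the summed NK level 3.18 to 3.98 in KO and 3.08 to 4.40 in WT. Most of the T cell sum came from Cd8a alone, read through a probe set with the suffix x_at. Cd8a read 1.94, 2.73 and 4.16 in KO 1 to 3, against 2.75, 2.31 and 3.09 in WT 1 to 3. Single markers went both ways. Of the T cell markers 1 lay below 0 and 3 above, of the NK cell markers 4 below and 2 above, and of the B cell markers 3 below. Among the dim ones, Cd3g (0.46), Klrk1 (0.41) and Gzma (0.30) lay above 0. Gzmb, a granzyme of NK and T cells, read 0.20, 0.499 and 0.348 in KO 1 to 3, against 0.591, 0.802 and 0.553 in WT 1 to 3. Every KO array lay below every WT array, which was the case for 5.89% of all genes measured. The T cell marker Cd5 (-0.39) and the B cell marker Ms4a1 (-0.58) were also lower in 3 of 3 pairs, and like Gzmb (-0.86) they were too dim to be tested and are named after their values were seen. The 3 measured B cell markers summed to 1.53 to 2.08 in KO and 1.80 to 3.59 in WT, and the 5 dendritic cell markers to 6.31 to 6.85 in KO and 5.89 to 7.71 in WT. The 6 endothelial markers summed to 44.5 to 48.2 in KO and 47.1 to 64.2 in WT, and 4 of the 6 (Cdh5, Kdr, Tie1 and Emcn) lay lower in all 3 pairs, with a median difference of -0.29. The 8 macrophage and monocyte markers summed to 105.9 to 119.7 in KO and 86.2 to 119.5 in WT. Of these 8, 4 lay below 0 and 4 above. In all 3 pairs 3 were higher, Cd14 (0.44), Mrc1 (0.45) and Cd163, and 1 was lower, Cd68. Of all genes measured, 9.18% were higher and 14.4% lower in all 3 pairs. The scavenger receptor Cd163 read 4.13, 5.49 and 5.01 in KO 1 to 3, against 2.60, 1.52 and 1.96 in WT 1 to 3 (log2 difference 1.29, limma adjusted p = 0.396). The lysosomal protein Cd68 differed by -0.39 (limma adjusted p = 0.663), and these 4 genes are named after their values were seen. The part of these cell types in the GTPase result was not tested, and in whole tissue fewer cells of a type and less RNA per cell cannot be told apart.

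Interferon acts on these genes through short promoter elements. The promoters of 4 genes are shown, those with the largest differences among the genes whose promoter was available and held a response element. Iigp1, Oas2 and Zbp1 were among the genes without an available promoter, so they were not searched. They are the 250 bases before the transcript start, 5′ to 3′ on the strand of the gene, from RefSeq on GRCm38.p6, with capitals for each match to the interferon-stimulated response element, searched on both strands as GAAA, any 2 bases and GAAA again (TTTC, any 2 bases and TTTC on the other strand). They are Gbp3 (chr3:142559794-142560043, plus strand), Gbp2 (chr3:142620413-142620662, plus strand), Ifit3 (chr19:34583279-34583528, plus strand) and Stat2 (chr10:128270248-128270497, plus strand).
Gbp3: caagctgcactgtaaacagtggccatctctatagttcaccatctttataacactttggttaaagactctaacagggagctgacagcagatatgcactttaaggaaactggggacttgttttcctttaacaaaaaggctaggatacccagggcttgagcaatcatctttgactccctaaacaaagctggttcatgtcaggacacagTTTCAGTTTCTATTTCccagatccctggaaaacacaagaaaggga
Gbp2: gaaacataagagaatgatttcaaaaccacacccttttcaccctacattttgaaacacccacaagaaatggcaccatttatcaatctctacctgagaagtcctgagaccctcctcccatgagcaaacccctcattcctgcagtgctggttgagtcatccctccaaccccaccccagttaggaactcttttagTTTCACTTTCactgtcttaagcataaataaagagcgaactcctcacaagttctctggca
Ifit3: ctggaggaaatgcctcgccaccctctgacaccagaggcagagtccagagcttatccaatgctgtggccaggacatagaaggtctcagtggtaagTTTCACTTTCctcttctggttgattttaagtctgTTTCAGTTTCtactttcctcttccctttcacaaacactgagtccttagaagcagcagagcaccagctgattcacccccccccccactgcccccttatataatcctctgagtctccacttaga
Stat2: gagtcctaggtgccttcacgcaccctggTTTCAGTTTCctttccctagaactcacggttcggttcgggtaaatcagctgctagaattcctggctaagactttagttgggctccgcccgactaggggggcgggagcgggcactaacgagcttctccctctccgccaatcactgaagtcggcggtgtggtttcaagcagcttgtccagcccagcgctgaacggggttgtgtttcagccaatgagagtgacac
Counted from the transcript start, Gbp3 holds 2 matches that overlap, beginning at -45 and -39, and Gbp2 holds 1 that begins at -59. Those of Ifit3 lie further up, at -156 and -122, and that of Stat2 at -222.

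Over the whole table of windows, which run from 250 bases before to 50 bases after a start, 27 of the 37 genes were found. Of these, 17 (63.0%) held the response element, against 3.99% of all 27025 genes in the table. The gamma-activated site, searched as TTCNNNGAA, which reads the same on both strands, was held by 8 of the 27 (29.6%), against 9.55% of all genes. Differences overlapped between genes with and without the response element. The 16 measured genes that held the response element had a median difference of -0.28 (13 below 0), and the 9 measured genes without it -0.10 (6 below 0). For the gamma-activated site the order was the other way, with -0.21 over the 8 measured genes that held it and -0.29 over the 17 without it. Ifi47, at -0.94, had neither element in its window, and Irgm2, at 0.09, had both. The differences ran from -0.77 to 0.36 with the response element and from -0.94 to 0.33 without it. A match to these letters is a description of the sequence and does not show that a factor binds there.

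The IFIT proteins bind foreign RNA and block its translation. Ifit3 read 1.58, 3.09 and 2.41 in KO 1 to 3, against 3.20, 3.79 and 3.21 in WT 1 to 3. The highest KO array lay just below the lowest WT array, and the difference of -0.58 (95% CI -1.11 to -0.04, limma adjusted p = 0.561) was -0.35 without pair 1. Ifit1 read 1.44, 1.06 and 0.792 in KO 1 to 3, against 1.53, 1.45 and 1.34 in WT 1 to 3. It was lower in each pair with ratios of 0.937, 0.732 and 0.592, but KO 1 reached into the WT range (log2 difference -0.43, limma adjusted p = 0.638). Ifit2, their neighbour in function, differed by 0.19 (95% CI -0.52 to 0.91) with ratios of 1.86, 0.677 and 1.19. Its sign rested on pair 1, without which it was -0.16.

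The OAS family makes short oligoadenylates that activate the nuclease RNase L, and its members went both ways. Oas2 read 1.98, 1.13 and 1.88 in KO 1 to 3, against 0.982, 0.875 and 0.674 in WT 1 to 3. It was the gene for which every KO array lay above every WT array, 1.94-fold higher in KO, with ratios of 2.02, 1.29 and 2.78 and a log2 difference of 0.95. The mean was 1.66 in KO and 0.844 in WT, so the gene was above the minimum for testing through KO only, and the difference is given as a description. Oasl2, an OAS-like relative, read 1.27, 1.60 and 0.422 in KO 1 to 3, against 1.52, 1.28 and 1.53 in WT 1 to 3. Its difference of -0.60 (limma adjusted p = 0.720) rested on KO 3 and was 0.03 without pair 3.

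Oasl1, which in mice restrains the translation of Irf7, read 2.76, 0.954 and 1.91 in KO 1 to 3, against 1.74, 1.28 and 1.13 in WT 1 to 3. Pairs 1 and 3 were higher in KO and pair 2 was lower (log2 difference 0.33, limma adjusted p = 0.786). Oas1a read 2.15, 1.80 and 1.52 in KO 1 to 3, against 3.16, 1.77 and 2.09 in WT 1 to 3, with overlapping groups (log2 difference -0.33, limma adjusted p = 0.711). Oas3 was too dim to be tested. It read 0.530, 0.166 and 0.173 in KO 1 to 3, against 0.154, 0.156 and 0.167 in WT 1 to 3, and 5 of these 6 signals lay below the floor of 0.25.

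Of the Mx proteins and other antiviral effectors, 8 of 9 were measured and 6 tested. Xaf1, a partner of the apoptosis inhibitor XIAP, read 7.37, 7.93 and 6.40 in KO 1 to 3, against 9.85, 8.91 and 8.65 in WT 1 to 3. All KO arrays lay below all WT arrays, but the step was small, 1.27-fold (log2 difference -0.34, 95% confidence interval -0.80 to 0.12, limma adjusted p = 0.675). A second, dimmer probe set of Xaf1 gave -0.06. Rsad2, which encodes viperin, an enzyme that makes a chain-terminating nucleotide, read 8.79, 13.6 and 14.4 in KO 1 to 3, against 9.93, 22.7 and 13.95 in WT 1 to 3. The array of WT 2 alone stood high, the difference of -0.29 was -0.07 without pair 2, and the other probe sets gave -0.07 and 0.03.

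Ifi35, a partner of the STAT-interacting protein Nmi, read 19.6, 18.8 and 23.8 in KO 1 to 3, against 18.8, 27.1 and 24.0 in WT 1 to 3, with a difference of -0.16 that was 0.02 without pair 2. The dimmer probe sets of Ifi35 gave -0.39 and 0.05. Parp9 and Parp14, ADP-ribosyltransferase family members, differed by -0.28 (3 of 3 pairs lower) and 0.05. Bst2, the tetherin that holds budding virus at the cell surface, differed by -0.08. Mx1 was dim, with 0.468, 0.424 and 0.650 in KO 1 to 3, against 0.199, 0.461 and 0.511 in WT 1 to 3, and Mx2 lay between 0.148 and 0.606 in KO and between 0.0554 and 0.376 in WT. Neither was tested, and signals this low do not show whether the genes were expressed.

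**Figure D3:**
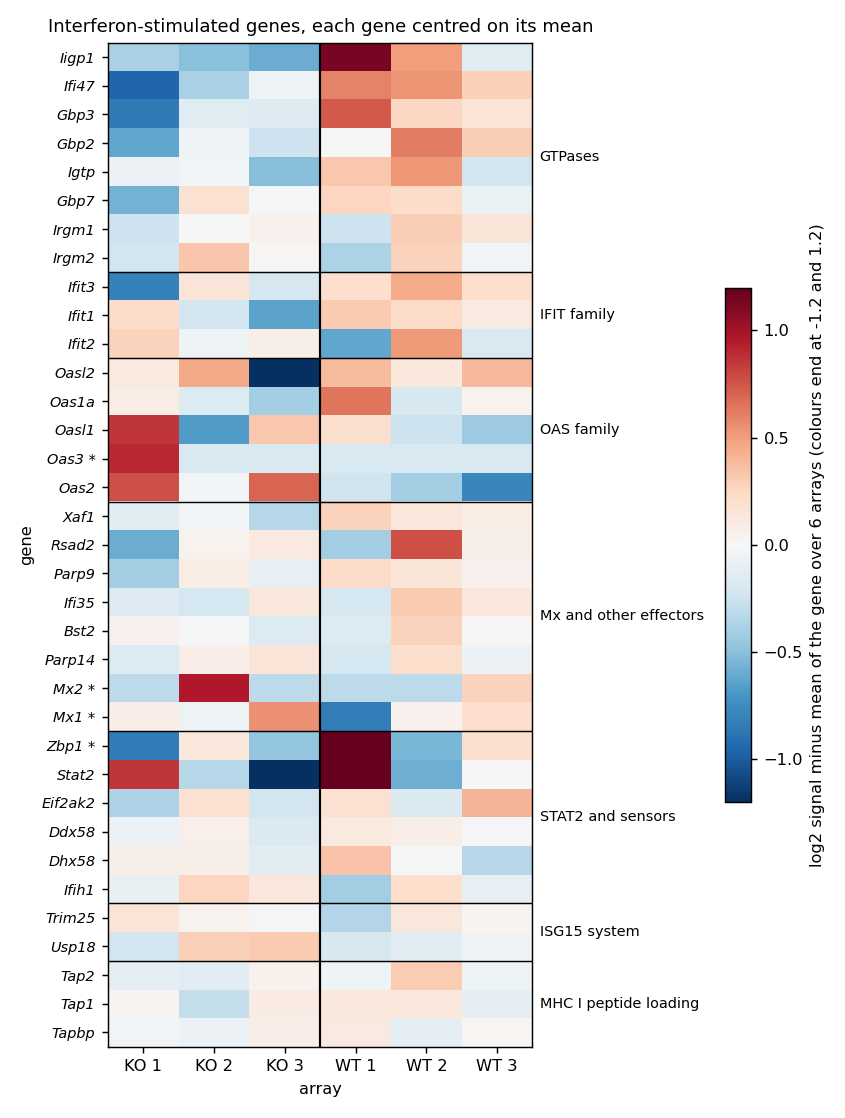
Log2 signal of the 35 genes on each array, centred on the mean of the gene over the 6 arrays, with KO arrays left of the black line and WT arrays right of it, and genes in groups by role. Red is above and blue below the mean of the gene, colours end at -1.2 and 1.2, and an asterisk marks the 4 genes too dim to be tested. The upper GTPase rows are blue in KO and mostly red in WT, but WT 3 is below the mean of the gene for Iigp1 and Igtp. The contrast is clearest in pair 1 for Iigp1, Ifi47 and Gbp3. The OAS rows and the sensors show no shared pattern by genotype.

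The signalling and sensor genes gave a mixed picture. Stat2, a subunit of the complex formed after type I interferon, read 1.63, 0.712 and 0.377 in KO 1 to 3, against 2.27, 0.599 and 0.901 in WT 1 to 3. The 2 littermates of pair 1 were both high, the genotypes overlapped, and the difference of -0.49 was -0.11 without pair 3 and -0.08 with both probe sets averaged. With means of 0.906 in KO and 1.26 in WT it was above the minimum for testing through WT only, and the difference is given as a description. Zbp1, a sensor of left-handed nucleic acid, was not tested. It read 0.259, 0.504 and 0.337 in KO 1 to 3, against 1.34, 0.317 and 0.528 in WT 1 to 3, so that its difference of -0.78 rested on WT 1 and was 0.01 without pair 1.

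The helicase sensors of viral RNA did not share a direction. Ifih1, which encodes MDA5, differed by 0.20 (95% CI -0.25 to 0.66) and was higher in 3 of 3 pairs, while Ddx58, which encodes RIG-I, differed by -0.12 (-0.57 to 0.33) and was lower in 3 of 3 pairs. A second tested probe set of Ddx58 gave -0.34 and was lower in 2 of 3 pairs. Dhx58, their regulator LGP2, differed by 0.01 on its brightest probe set and by -0.92 on a dimmer, untested one that was lower in 3 of 3 pairs. Eif2ak2, the kinase PKR that halts translation on double-stranded RNA, gave -0.27, 0.39 and -0.01 on its 3 probe sets. These probe sets differ in direction, so no single value stands for the gene.

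In the ISG15 system, Usp18, the protease that removes ISG15 and restrains the type I receptor, read 1.88, 2.65 and 2.70 in KO 1 to 3, against 1.91, 1.98 and 2.11 in WT 1 to 3. KO 2 and KO 3 lay above all WT arrays and KO 1 below them (log2 difference 0.25, limma adjusted p = 0.775). Trim25, the ubiquitin ligase of RIG-I, differed by 0.12, -0.13 and 0.30 on its 3 probe sets. In the peptide loading of MHC class I, Tapbp, the tapasin that holds empty class I molecules, read 51.8, 50.3 and 55.9 in KO 1 to 3, against 57.0, 49.1 and 53.7 in WT 1 to 3. Its difference of -0.01 (95% CI -0.47 to 0.44) turned to 0.05 with signals as deposited. A second, dimmer probe set of Tapbp gave 0.13 and was higher in 3 of 3 pairs. The peptide transporter subunits Tap1 and Tap2 differed by -0.10 and -0.13, and each was lower in 2 of 3 pairs.

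**Figure D4:**
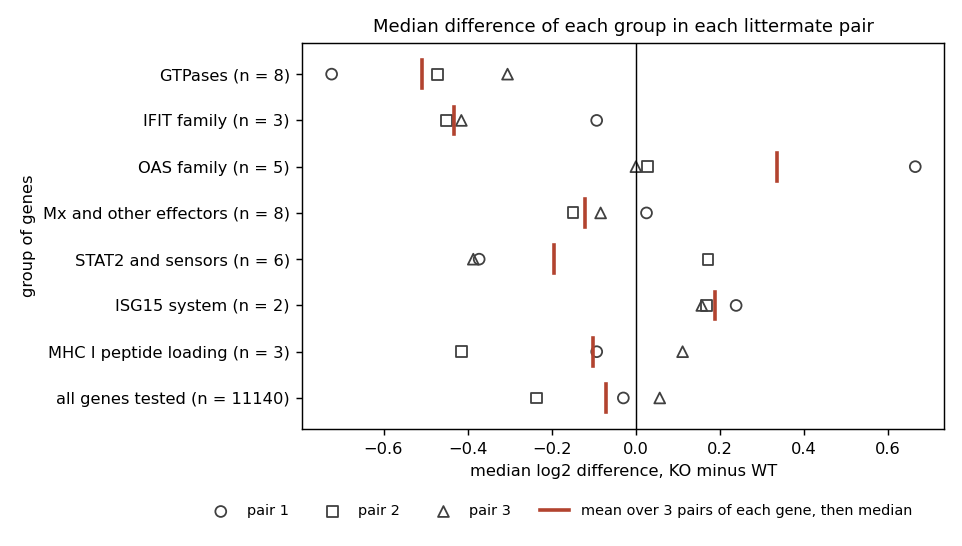
Median log2 difference, KO minus WT, of each group of interferon-stimulated genes and of all genes tested. Open symbols are the medians within each of 3 littermate pairs and red bars the medians of the differences averaged over pairs. The GTPases lie between -0.72 and -0.31 in the 3 pairs, the OAS family lies apart in pair 1, and pair 2 is low for all genes tested, at -0.24.

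The rest of the pathway was examined as well. Of 9 measured ligand genes, among them Ifng and Ifnb1, 8 had mean signals below the array median, and Il18 was the 1 tested, at 0.29. All 7 measured receptor and JAK kinase genes were tested, with differences from -0.21 to 0.05. Of these, Jak2 (-0.21) and Tyk2 (-0.08) were lower in 3 of 3 pairs, and Ifngr2, the second chain of the interferon gamma receptor, differed by -0.17. Among 6 measured inhibitors of the pathway, 0 were lower or higher in all 3 pairs, and the tested ones ran from -0.21 for the RNA editor Adar to 0.13 for the phosphatase Ptpn2. Among 10 upstream sensors and adaptors 1 was higher and 0 lower in all 3 pairs, with Tbk1, a kinase of interferon induction, at -0.35 and Sting1, the adaptor of cytosolic DNA sensing, at 0.32. Of all genes measured, 14.4% were lower and 9.18% higher in all 3 pairs. None of the tested genes of these lists passed limma's adjusted threshold, and 0 had an unadjusted p under 0.05.

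MHC class I and immunoproteasome genes lay near the genes tested as a whole, with a median of -0.09. Of 10 measured, 7 lay below 0. In all 3 pairs 1 was lower (Psmb8, at -0.18) and 3 were higher, against 19.7% and 10.9% of the genes tested. The proteasome activator subunit Psme1 read 75.1, 49.8 and 55.9 in KO 1 to 3, against 49.1, 43.9 and 45.1 in WT 1 to 3 (log2 difference 0.37, limma adjusted p = 0.663). All KO arrays lay above all WT arrays for Psme1, which was the case for 4.43% of the genes tested. The class I heavy chains H2-K1 and H2-D1 differed by -0.17 and -0.12. A further 35 interferon-stimulated genes, outside the 37 and the MHC class I list, had a median of -0.13, with 22 below 0. In all 3 pairs 8 of these were lower and 4 higher, against 14.4% and 9.18% of all genes measured. Of the 29 tested 0 passed and 0 had an unadjusted p under 0.05. The largest differences among the tested ones were those of the ubiquitin ligase family member Herc6 (0.68), Ifi27l2a (0.61) and the ISG15-conjugating enzyme Ube2l6 (0.41). Some genes too dim to be tested differed more, with Ifitm1 (1.33) and Ddx60 (0.75) higher and Ifi44l (-0.93) and Ifit1bl1 (-0.87) lower in KO. Herc6 had ratios of 0.363, 5.13 and 2.19, with WT 2 at 0.126, and both Herc6 and Ube2l6 were above the minimum for testing through KO only. Among those lower in 3 of 3 pairs were the STAT-interacting protein Nmi (-0.41), Trim34a (-0.38), the guanylate-binding protein Gbp6 (-0.37) and Rtp4 (-0.34), which are named after their values were seen.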

How the data were processed

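The authors hybridised total RNA of BAT from 6 mice to 6 arrays and deposited 1 linear signal intensity per probe set, made with GCOS per the labels, of unstated version and scaling. The deposited columns have unequal medians, so the later scaling of each chip to its median in the methods of the study had not been applied. The 64 control probe sets were set aside, leaving 45037. Each intensity was divided by its array median, floored at 0.25, and log2 was taken, which understates differences of dim signals. Probe sets with a mean above 1 were tested, 22356 in all, with limma 3.58.1 in R 4.3.3 (genotype and littermate pair as terms, Benjamini-Hochberg at 0.05 over all tested probe sets), after a check on simulated data. Symbols came from the platform annotation, where 34945 probe sets carry 1 symbol, 932 several and 9160 are unlisted. A fold is 2 raised to the absolute log2 difference.

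The design text deposited with the series names the animals as numbered pairs of littermates, and the pair is therefore a term of the fit. As a check, the deviations of KO and WT littermates from their genotype means had correlations of 0.446 in pair 1, 0.0847 in pair 2 and 0.160 in pair 3, against -0.359 to 0.281 between animals of different pairs, the highest being KO 2 with WT 3, so the pairing rests on the design text and not on this check. Values per array are given for the 16 genes with the largest differences and the 4 brightest, and for further pathway lists the genes with the largest differences. The genes and lists were chosen with earlier results of these data known. Alternatives were other scalings, floors, filters, priors and probe sets, no block, and each pair left out. The number of arrays limits the precision.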

Additional observations from a re-analysis of the deposited data

How the results depend on the processing

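Under 14 alternatives, 20 of the 35 genes kept their sign throughout, 14 lower and 6 higher, 14 turned in at least 1, and Oas3 was at 0 without pair 1. The median of the 35 genes, -0.13, was -0.069 with signals as deposited, -0.063 after quantile normalization, -0.21 with a filter above 2, -0.20 with plain probe sets alone, and -0.13 to -0.067 with 1 pair left out. With signals as deposited the genes that lay lower in all 3 pairs numbered 7 in place of 11, and those that lay higher 5 in place of 3, while the median of the genes tested was -0.01 in place of -0.07. With 1 pair left out, 14 to 16 were lower and 3 to 7 higher in both remaining pairs. Fewer pairs had to agree there, so these counts cannot be set against those over 3 pairs. Shares over all genes are not given for these counts or those with signals as deposited, so neither is read as a result. Members past the adjusted threshold numbered 0 as reported, and 1 (Iigp1) when the prior was robust and followed intensity. With no replicate block for the littermate pair 0 passed and the smallest adjusted p was 0.764, so the pairing changed no call. The GTPase median, -0.51, lay between -0.56 and -0.39 with 1 pair left out and at -0.45 with signals as deposited, and 5 to 7 of the 8 were lower in every pair over all alternatives, which for this group were chosen after seeing the data. Without the array of WT 2, every KO array lay below every WT array for 7 of the 35 genes (8.25% of all genes measured), and without pair 2 for 11 (12.2%), with 4 GTPases each time.

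Turned signs were as follows, and the cause was not tested. When all probe sets of a gene were averaged, Eif2ak2 was at 0.037, Tapbp at 0.058, Dhx58 at -0.31 and Parp14 at -0.17. Tapbp was at 0.047 with signals as deposited and at 0.050 after quantile normalization. With 1 pair left out, the values ran from -1.51 to 0.010 for Zbp1, -1.06 to 0.028 for Oasl2, -0.43 to 0.015 for Gbp7, -0.27 to 0.022 for Ifi35, -0.25 to 0.024 for Tap2, -0.25 to 0.055 for Tap1, -0.23 to 0.022 for Bst2, -0.050 to 0.047 for Tapbp, -0.087 to 0.15 for Dhx58, -0.040 to 0.14 for Parp14, -0.066 to 0.23 for Trim25, -0.16 to 0.57 for Ifit2 and -0.29 to 0.64 for Mx2. Oas2 and Stat2 were above the minimum for testing through 1 genotype only, and the 4 dimmer genes have no test.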
